A study of Mus musculus with 6 samples.

Results

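The genes described here encode neutrophil granule and antimicrobial proteins: Ltf, Ngp, Camp, Lcn2, S100a8, S100a9, Lyz2, Elane, Mpo and Prtn3. They are all 10 of the genes named for this purpose, among 14750 in the deposited table, matched by gene symbol and sorted by granule class. They were chosen after their difference between the groups of this series was known, so their values are a description and carry no test. CD8+ T cells of the spleen gave 6 RNA-seq libraries, from mice given a hematopoietic stem cell transplantation (HSCT). The labels place 3 libraries in the allo-HSCT group, with a C57BL/6 donor and a Balb/c host, and 3 in the syn-HSCT group, with a Balb/c donor and a Balb/c host. Per the labels, the strain of all 6 is Balb/c, the cells came from spleen suspensions through a CD8+ T cell isolation kit, and ribosomal RNA was depleted from total RNA. The labels do not say whether animals were pooled, how old they were or whether each library had its own animals, so a p-value reflects no more than how these libraries vary, and that variation may be technical.

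Values are FPKM, fragments scaled by transcript length and library depth. The depth implied by the values was 15154000 to 18715000 fragments per library. The library titles begin with CD8_S where the label is allo-HSCT and with CD8_A where it is syn-HSCT, so the titles' letters run opposite to the labels. Genes that mark the strains also ran against the labels: H2-Ea-ps, an MHC class II gene that Balb/c mice transcribe and C57BL/6 mice do not, stood at 1909, 1948 and 2006 FPKM in the libraries labelled allo-HSCT, against 6.665, 3.95 and 3.66 FPKM in those labelled syn-HSCT. Gbp2b, an interferon-induced GTPase gene with higher expression in Balb/c than in C57BL/6 mice, was 17.6-fold higher in the allo-HSCT libraries, and Ly6a, a surface antigen gene with higher expression in T cells of C57BL/6 mice, was 11.6-fold lower there. Every direction below is therefore one between libraries as labelled, called allo-labelled and syn-labelled. CD8 T cell markers were present in all libraries, with Cd8b1 at 476 to 514 FPKM in allo-labelled libraries and 472 to 489.9 FPKM in syn-labelled libraries. By limma, Cd8a rose, with means of 351 FPKM in allo-labelled and 240.2 FPKM in syn-labelled libraries. Cd3e fell, with means of 71.7 and 80.1 FPKM for the same groups. After quantile normalization Cd3e was not called (limma adjusted p = 0.272, log2 difference of Cd3e -0.04). Cd3g and Trac, named after their values were seen, fell as well. Their means were 73.7 and 278 FPKM in allo-labelled libraries, against 124 and 447 FPKM in syn-labelled libraries.

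Neutrophils build their granules in sequence while they mature in bone marrow. Promyelocytes make the azurophil granules, which hold myeloperoxidase and the serine proteases. Myelocytes and metamyelocytes make the specific granules, which hold lactoferrin, cathelicidin and lipocalin, and the transcripts of the early granules fall as the later ones appear. Maturing and circulating neutrophils keep large amounts of the cytosolic calcium-binding pair S100A8 and S100A9, which together form calprotectin. In resting spleen, such transcripts belong to granulocytes and their precursors, and Lyz2 also to monocytes and macrophages.

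All 4 specific granule genes were high in allo-labelled libraries and low in syn-labelled libraries. Ltf encodes lactoferrin, an iron-binding antimicrobial protein. It was at 128, 127 and 130.3 FPKM in replicates 1 to 3 labelled allo-HSCT, against 5.07, 4.89 and 4.69 FPKM in replicates 1 to 3 labelled syn-HSCT. The means were 129 ± 1.53 and 4.89 ± 0.191 FPKM (SD, n = 3 each), a ratio of 26.3, and the groups lay far apart. Ngp encodes neutrophilic granule protein, a relative of the cathelicidins. It was at 420.3, 404 and 399.9 FPKM in allo-labelled libraries, against 19.99, 19.5 and 18.5 FPKM in syn-labelled libraries, a ratio of means of 21.1. Camp encodes the cathelicidin precursor that yields the antimicrobial peptide CRAMP. Its values were 137, 131 and 131 FPKM in allo-labelled libraries, against 5.95, 3.58 and 5.005 FPKM in syn-labelled libraries, a ratio of 27.5. Lcn2 encodes lipocalin 2, which binds bacterial siderophores and so withholds iron. It was at 48.1, 44.4 and 47.7 FPKM in allo-labelled libraries, against 3.09, 3.12 and 3.40 FPKM in syn-labelled libraries. Its ratio of means was 14.6, the lowest of the 4. None of the 4 genes overlapped between the groups.

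In this bulk RNA, fewer cells of a type and less RNA per cell cannot be told apart. Markers of other cells moved with these values. The summed FPKM of 6 genes of mature neutrophils (Ly6g, Csf3r, Cxcr2, Cd177, Mmp9 and Retnlg) was 149 to 156 in allo-labelled libraries, against 6.00 to 6.77 in syn-labelled libraries, and all 6 rose by limma's test, although Ly6g, Csf3r and Cxcr2 reached the filter in allo-labelled libraries alone and could only be called higher. Their part in the values of the granule genes was not tested.

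The cytosolic pair was the most abundant. S100a9 was at 874, 821 and 858 FPKM in allo-labelled libraries, against 43.2, 42.8 and 37.3 FPKM in syn-labelled libraries. Its partner S100a8 was at 449.6, 412 and 451 FPKM in allo-labelled libraries, against 25.4, 22.4 and 25.0 FPKM in syn-labelled libraries. The ratios of means were 20.7 for S100a9 and 18.02 for S100a8, again without overlap. S100a9 ranked 35 of all genes by mean FPKM in allo-labelled libraries and 1327 in syn-labelled libraries. The ratio of S100a9 to S100a8 within a library was 1.95 ± 0.0471 in allo-labelled libraries and 1.70 ± 0.211 in syn-labelled libraries (SD, n = 3 each), and its ranges overlapped.

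Lyz2, the lysozyme M gene of neutrophils and macrophages, whose enzyme cleaves bacterial cell walls and is stored in more than one granule type, was at 242, 244 and 241 FPKM in allo-labelled libraries, against 12.3, 12.5 and 11.9 FPKM in syn-labelled libraries. The ratio of means was 19.8, close to that of the cytosolic pair. Lyz1 is a close paralog, so their reads may be shared. Markers of macrophages moved with Lyz2: their summed FPKM over 7 genes was 46.6 to 50.35 in allo-labelled libraries, against 9.46 to 12.4 in syn-labelled libraries, a ratio of 4.29. The part of macrophages in the Lyz2 values was not tested.

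**Figure D1:**
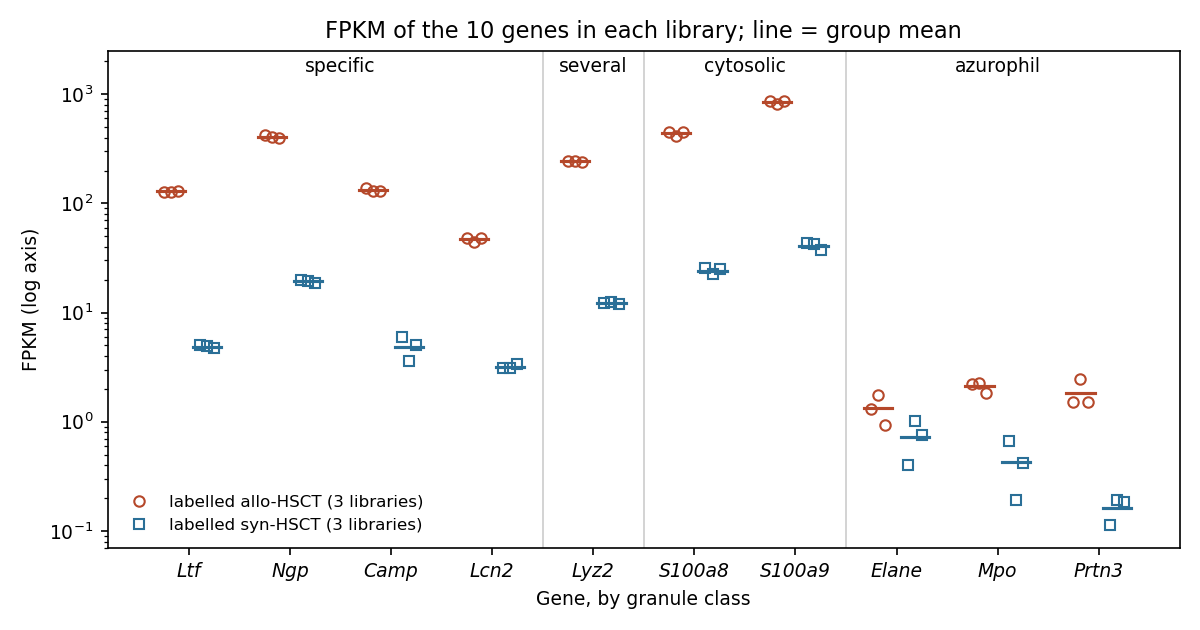
FPKM of each of the 10 genes in every library on a log axis, with circles for the 3 allo-labelled libraries, squares for the 3 syn-labelled libraries and a line at each group mean. The 7 genes outside the azurophil class sit 14.6-fold to 27.5-fold apart between the groups, while the 3 azurophil genes lie below 2.5 FPKM in every library and Elane overlaps.

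The azurophil genes were much lower in level: by mean FPKM they ranked 10298 (Mpo), 10673 (Prtn3) and 11504 (Elane) of 14750 genes in allo-labelled libraries, and 13297 (Mpo), 14073 (Prtn3) and 12176 (Elane) in syn-labelled libraries. Elane encodes neutrophil elastase. It was at 1.31, 1.74 and 0.939 FPKM in allo-labelled libraries, against 0.398, 1.012 and 0.760 FPKM in syn-labelled libraries. These values rest on 20, 28 and 14 fragments in allo-labelled libraries and 6, 18 and 14 in syn-labelled libraries. The groups overlapped, and the ratio of means was 1.84. Mpo encodes myeloperoxidase, which makes hypochlorous acid from hydrogen peroxide. It was at 2.21, 2.27 and 1.83 FPKM in allo-labelled libraries, against 0.668, 0.194 and 0.421 FPKM in syn-labelled libraries, a ratio of 4.92 without overlap. Prtn3 encodes proteinase 3, a close relative of elastase. It was at 1.52, 2.47 and 1.52 FPKM in allo-labelled libraries, against 0.113, 0.192 and 0.185 FPKM in syn-labelled libraries. The ratio of its means was 11.3, on 151 fragments in allo-labelled libraries and 15 in syn-labelled libraries.

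At this level the scale matters. The log2 difference on log2(FPKM + 1) values was 0.44 for Elane, 1.13 for Mpo and 1.27 for Prtn3, and at a pseudocount of 0.01 in place of 1 it was 0.92, 2.43 and 3.41. After quantile normalization it was 0.05, 0.78 and 0.91. Among the other 7 genes it ran from 3.505 for Lcn2 to 4.54 for Camp, on 49 to 8068 fragments per library. In the GENCODE vM21 annotation, 159 exonic bases of Prtn3 overlap Plppr3 and 512 of Mpo overlap an antisense gene, both on the other strand. Use of strand in counting is not given in the sources used here, so fragments in those stretches are uncertain.

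Of the 10 genes, 9 were higher without overlap between the groups, beside 37.0% of the 12404 genes tested, and 8 had a ratio of means above 10, beside 4.45%. The genes were chosen for this difference, so nothing is read from these counts. All 10 passed the filter on low values (1 FPKM or more in 3 or more of the 6 libraries), but Mpo and Prtn3 did so through allo-labelled libraries alone. The median log2 difference of the 10 was 4.16, beside 0.00834 over all genes tested.

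The order of levels was much the same in both groups. In allo-labelled libraries it ran S100a9, S100a8, Ngp, Lyz2, Camp, Ltf, Lcn2, Mpo, Prtn3 and Elane. S100a8 and Ngp overlapped there, as did Mpo with Prtn3 and Prtn3 with Elane. In the syn-labelled libraries it ran S100a9, S100a8, Ngp, Lyz2, Ltf, Camp, Lcn2, Elane, Mpo and Prtn3, and the overlapping neighbours were Ltf with Camp and Elane with Mpo. Replicates were tight outside the azurophil class: the coefficient of variation was 0.541% to 5.12% in allo-labelled libraries and 2.43% to 24.6% in syn-labelled libraries, with Camp the most variable. For the azurophil genes it was 11.3% to 30.2% in allo-labelled libraries and 26.7% to 55.4% in syn-labelled libraries.

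Together the 10 genes made up 0.742%, 0.711% and 0.733% of all FPKM in allo-labelled libraries, against 0.0382%, 0.0362% and 0.0353% in syn-labelled libraries. The shares of the abundant genes among the 10 changed far less than this total. The cytosolic pair held 57.2% ± 0.794 of the summed FPKM in allo-labelled libraries and 58.8% ± 0.574 in syn-labelled libraries (SD, n = 3 each). The specific class held 31.8% ± 0.477 in allo-labelled libraries and 29.0% ± 0.698 in syn-labelled libraries. Shares of Ngp, S100a9, Lyz2 and Prtn3 overlapped between the groups. Ltf took 5.71% ± 0.138 in allo-labelled libraries and 4.39% ± 0.037 in syn-labelled libraries, and the share of Camp was also larger in allo-labelled libraries, while those of Lcn2, S100a8, Elane and Mpo were smaller there. Elane took 0.0592% ± 0.0191 in allo-labelled libraries and 0.657% ± 0.291 in syn-labelled libraries, and Mpo took 0.0935% ± 0.0116 in allo-labelled libraries and 0.381% ± 0.200 in syn-labelled libraries (SD, n = 3 each). Within a library, Ltf over Lcn2 was 2.66, 2.87 and 2.73 in allo-labelled libraries, against 1.64, 1.57 and 1.38 in syn-labelled libraries.

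The azurophil class stood out in these proportions. The ratio of the summed FPKM of the 3 azurophil genes to that of the 4 specific granule genes was 0.00687, 0.00917 and 0.00606 in allo-labelled libraries, against 0.0346, 0.0449 and 0.0433 in syn-labelled libraries. The ranges did not overlap. In the syn-labelled libraries this rests on azurophil genes at 3 to 35 fragments each. Ctsg, which encodes the azurophil protease cathepsin G and was picked out after its values were seen, was at the same low level, at 0.871, 1.60 and 0.830 FPKM in allo-labelled libraries and 0.253, 0.321 and 0.414 FPKM in syn-labelled libraries, and did not enter the test.

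**Figure D2:**
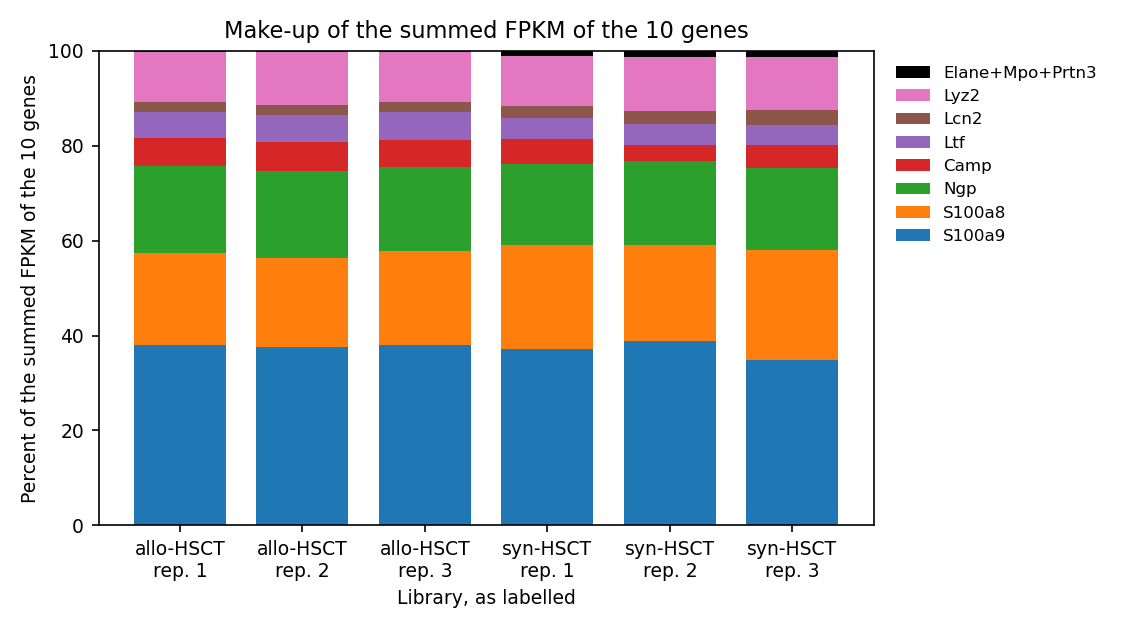
Share of each gene in the summed FPKM of the 10 genes, in percent, for each library, with Elane, Mpo and Prtn3 drawn as 1 black segment. The black segment is 0.190% to 0.296% in allo-labelled libraries and 1.015% to 1.275% in syn-labelled libraries, while S100a9 and S100a8 fill 56.3% to 59.2% of each bar.

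The genes lie in small groups on the genome (GRCm38, GENCODE vM21). All 10 are protein-coding. Camp (chr9:109847379-109849617, minus strand), Ngp (chr9:110419747-110423012, plus strand) and Ltf (chr9:111019271-111042767, plus strand) share a stretch of chromosome 9, with 572 kb between the lower ends of Camp and Ngp and 599.5 kb between those of Ngp and Ltf. Prtn3 (chr10:79874476-79883174) and Elane (chr10:79886247-79888215) lie side by side on the plus strand of chromosome 10, where Lyz2 is also found (chr10:117277331-117282321, minus strand). S100a8 (chr3:90668978-90670035, plus strand) and S100a9 (chr3:90692632-90695721, minus strand) have lower ends 23.65 kb apart. Lcn2 is at chr2:32384633-32388252 on the minus strand and Mpo at chr11:87793581-87804413 on the plus strand.

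The promoters of the specific and azurophil classes were compared because the 2 classes differ in level. C/EBP factors, C/EBP epsilon among them, act on specific granule genes, and PU.1 acts on many myeloid genes. The 250 bases before each RefSeq start (GRCm38.p6), found for all 10 genes, were searched on both strands for TTGCNNAA, a spelling of the C/EBP core, and GAGGAAG, a spelling of the PU.1 core. These were picked from 12 spellings tried with the matches in view. TTGCNNAA stood in 3 of the 4 specific granule genes, 0 of the 3 azurophil genes and S100a9, and in 9.56% of 32851 promoter windows of the same length. GAGGAAG stood in 3 of the 3 azurophil genes, 1 of the 4 specific granule genes (Lcn2) and S100a8, and in 10.6% of all windows. Other spellings drew other lines: GCAAT, part of a C/EBP site, stood in 8 of the 10 genes and in 23.1% of all windows. A match is a run of letters and not a bound site. The sequences of both classes are printed 5′ to 3′ along the gene's own strand, in lower case, with matches to TTGCNNAA (Ltf, Ngp and Lcn2) and GAGGAAG (Lcn2, Elane, Mpo and Prtn3) on either strand in capitals. No 2 of these matches overlap, and Camp holds neither.
Ltf: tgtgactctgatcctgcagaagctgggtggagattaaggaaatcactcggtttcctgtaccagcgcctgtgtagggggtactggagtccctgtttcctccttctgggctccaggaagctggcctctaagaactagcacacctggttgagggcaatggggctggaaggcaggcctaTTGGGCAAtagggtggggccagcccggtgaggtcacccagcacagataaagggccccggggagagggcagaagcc
Ngp: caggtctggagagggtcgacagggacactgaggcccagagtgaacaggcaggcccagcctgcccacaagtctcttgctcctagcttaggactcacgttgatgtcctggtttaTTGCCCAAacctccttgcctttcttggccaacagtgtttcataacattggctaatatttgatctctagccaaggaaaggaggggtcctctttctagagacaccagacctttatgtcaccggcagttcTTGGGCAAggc
Camp: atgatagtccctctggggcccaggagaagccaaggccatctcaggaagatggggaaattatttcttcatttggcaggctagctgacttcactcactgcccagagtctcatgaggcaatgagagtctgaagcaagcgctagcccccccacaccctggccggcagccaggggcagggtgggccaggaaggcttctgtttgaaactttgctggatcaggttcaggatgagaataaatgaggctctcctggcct
Lcn2: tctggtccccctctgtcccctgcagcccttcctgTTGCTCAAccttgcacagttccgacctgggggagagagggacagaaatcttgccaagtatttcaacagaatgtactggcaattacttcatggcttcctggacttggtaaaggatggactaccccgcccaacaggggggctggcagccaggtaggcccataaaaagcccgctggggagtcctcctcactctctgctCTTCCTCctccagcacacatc
Elane: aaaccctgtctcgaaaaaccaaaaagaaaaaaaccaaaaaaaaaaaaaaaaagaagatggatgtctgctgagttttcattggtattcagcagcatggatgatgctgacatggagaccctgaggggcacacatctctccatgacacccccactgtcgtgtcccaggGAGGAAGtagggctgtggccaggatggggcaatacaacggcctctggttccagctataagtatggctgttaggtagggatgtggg
Mpo: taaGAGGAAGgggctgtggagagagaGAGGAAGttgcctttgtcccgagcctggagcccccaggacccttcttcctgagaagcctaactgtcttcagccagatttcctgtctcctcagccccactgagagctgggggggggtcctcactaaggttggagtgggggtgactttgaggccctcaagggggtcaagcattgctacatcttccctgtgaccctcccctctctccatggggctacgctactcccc
Prtn3: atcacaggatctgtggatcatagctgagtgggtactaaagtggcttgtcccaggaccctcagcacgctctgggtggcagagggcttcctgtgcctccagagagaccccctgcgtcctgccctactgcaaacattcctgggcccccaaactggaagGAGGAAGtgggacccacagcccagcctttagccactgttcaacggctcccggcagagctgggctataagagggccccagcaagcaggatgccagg

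These windows are chr9:111019042-111019291 (plus strand) for Ltf, chr9:110419558-110419807 (plus) for Ngp, chr9:109849457-109849706 (minus) for Camp and chr2:32387740-32387989 (minus) for Lcn2. For the azurophil genes they are chr10:79886062-79886311 (plus) for Elane, chr11:87793534-87793783 (plus) for Mpo and chr10:79879417-79879666 (plus) for Prtn3. The RefSeq starts used here differ from the ends of the GENCODE genes given above. Each of these windows therefore overlaps its GENCODE gene, and those of Lcn2 and Prtn3 lie wholly inside it. Distances below are from the RefSeq start. The TTGCNNAA match of Ltf begins 75 bases before the start, those of Ngp 138 and 11 bases before it, and that of Lcn2 216 bases before it. The GAGGAAG matches begin 95 bases before the start in Prtn3, 85 in Elane, 247 and 224 in Mpo and 21 in Lcn2.

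Genes outside the 10 were tested with all genes, but their lists were drawn up with earlier results of these data known and are no independent evidence. Of 99 related neutrophil genes in 8 lists, 90 were in the table and 83 entered the fit. By limma, 61 rose and 14 fell in allo-labelled libraries at an adjusted p under 0.05, beside 34.7% of all genes tested that rose and 33.0% that fell. Of the 61, 32 reached 1 FPKM only in allo-labelled libraries and could enter the fit only by being higher there, so this count is not support for a common change. The median log2 difference of the 83 was 1.36.

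Other genes of specific and gelatinase granules were mostly called higher in allo-labelled libraries, some of them by little. Of 17 tested, 14 rose, 0 fell and 3 (Itgam, Ltb4r1 and Cnn2) were not called, with a median of 1.995. Beside this, 34.7% of all genes tested rose and 33.0% fell. Mmp25, Olfm4, Fcnb and Lyz1 reached the filter in allo-labelled libraries alone and could only be called higher. Itgb2 and Adam8 rose at ratios of 1.156 and 1.187. Retnlg, a resistin-like gene of neutrophils, was at 60.8, 57.9 and 56.2 FPKM in allo-labelled libraries, against 2.58, 3.00 and 2.99 FPKM in syn-labelled libraries, a log2 difference of 3.94 ± 0.06 (SE, limma adjusted p = 2.02e-08). The groups did not overlap. Cd177, a neutrophil surface glycoprotein gene, Hp, which encodes haptoglobin, and Slc11a1, a metal transporter gene of phagosomes, rose 18.3-fold, 9.70-fold and 9.26-fold. Chil3, which encodes the chitinase-like protein Ym1, was picked out after its values were seen: it was at 20.7, 21.0 and 21.1 FPKM in allo-labelled libraries, against 18.4, 19.1 and 19.55 FPKM in syn-labelled libraries. The difference of 0.13 ± 0.03 passed limma's test (adjusted p = 0.00944) at a ratio of 1.10.

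Of 6 other azurophil genes tested, 2 rose (Gusb and Cd63) and 3 fell (Pglyrp1, Ctsc and Srgn), with a median of -0.04, beside 34.7% of all genes tested that rose and 33.0% that fell, so nothing is read from these counts. With Pglyrp1 counted in its own class, 2 rose and 2 fell among the azurophil genes, and 14 rose and 1 fell among the specific and gelatinase genes. Pglyrp1, whose product, a peptidoglycan recognition protein, is known from specific granules although the gene stood in the azurophil list, was at 27.6, 27.3 and 28.3 FPKM in allo-labelled libraries, against 82.9, 80.3 and 82.3 FPKM in syn-labelled libraries (log2 difference -1.53 ± 0.03, limma adjusted p = 4.01e-08). Ctsc encodes the dipeptidyl peptidase that activates elastase, proteinase 3, cathepsin G and also granzymes. It was at 14.8, 15.8 and 17.15 FPKM in allo-labelled libraries, against 41.7, 42.6 and 41.6 FPKM in syn-labelled libraries. Both genes lay lower in every allo-labelled library. Gusb, which encodes beta-glucuronidase, rose 2.66-fold and Cd63, a tetraspanin gene of azurophil membranes, 12.3-fold. Cd63 reached the filter in allo-labelled libraries alone and could only be called higher. T cells also express Ctsc, Srgn and Gusb.

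Among 15 genes of cytosolic and secreted neutrophil proteins, 12 rose, 2 fell and 1 (Cstb) was not called, with a median of 1.42. Alox5ap, which is needed for leukotriene synthesis, was at 39.95, 41.8 and 42.6 FPKM in allo-labelled libraries, against 2.07, 2.45 and 2.07 FPKM in syn-labelled libraries. Il1b, the interleukin 1 beta gene, averaged 23.7 ± 1.81 FPKM in allo-labelled libraries and 0.351 ± 0.160 FPKM in syn-labelled libraries (SD, n = 3 each), and Anxa1, the annexin A1 gene, rose 2.74-fold. The 2 that fell were relatives of S100a8 and S100a9 with wide expression. S100a6 was at 122, 115.5 and 121 FPKM in allo-labelled libraries, against 435, 463 and 451.5 FPKM in syn-labelled libraries (log2 difference -1.90 ± 0.03, limma adjusted p = 4.30e-08), and S100a11 had means of 336 FPKM in allo-labelled libraries and 509 FPKM in syn-labelled libraries. The S100 genes thus did not share a direction.

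Of the 6 NADPH oxidase subunits, which supply the hydrogen peroxide that myeloperoxidase uses, 4 rose, 1 fell and 1 (Cyba) was not called. Cybb, the catalytic subunit, was at 15.2, 13.9 and 14.7 FPKM in allo-labelled libraries, against 1.09, 1.69 and 1.18 FPKM in syn-labelled libraries (log2 difference 2.76 ± 0.10, limma adjusted p = 1.04e-06). The cytosolic subunit genes Ncf1 and Ncf4 rose 3.14-fold and 2.04-fold. Rac2, a GTPase that lymphocytes also use, was lower, with means of 364 FPKM in allo-labelled and 433 FPKM in syn-labelled libraries.

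Surface receptors of neutrophils rose in 12 of 14 tested genes, and 11 of the 14 passed the filter through allo-labelled libraries alone. Csf3r, the receptor for the growth factor G-CSF, was at 22.15, 22.8 and 23.95 FPKM in allo-labelled libraries, against 0.4525, 0.567 and 0.518 FPKM in syn-labelled libraries (log2 difference 3.99 ± 0.06, limma adjusted p = 2.04e-08). Ly6g, the antigen of the 1A8 antibody, which has close paralogs in its gene family, averaged 19.9 ± 1.97 FPKM in allo-labelled libraries and 0.523 ± 0.305 FPKM in syn-labelled libraries (SD, n = 3 each). Cxcr2, the receptor for neutrophil chemokines, averaged 8.425 ± 0.579 FPKM in allo-labelled libraries and 0.347 ± 0.108 FPKM in syn-labelled libraries. Pirb and Cd300lf, which encode inhibitory receptors of myeloid cells, also rose. Il1r2, a decoy receptor for interleukin 1, and Itgal, the LFA-1 alpha chain that T cells also carry, fell. The log2 difference of Il1r2 was -0.50 (limma adjusted p = 0.0207), and without replicate 1 labelled allo-HSCT it was -0.42 and not called (limma adjusted p = 0.0655).

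The 10 genes were also set against single neutrophil genes within each library. Their summed FPKM was 37.9, 37.8 and 40.3 times that of Retnlg in allo-labelled libraries, against 45.1, 36.7 and 35.9 times in syn-labelled libraries, with overlap. It was 104, 95.85 and 94.5 times that of Csf3r in allo-labelled libraries, against 257, 194 and 207 times in syn-labelled libraries, without overlap. For Ly6g it was 115, 123 and 104 times in allo-labelled libraries, against 167.5, 156 and 629.9 times in syn-labelled libraries, without overlap and with replicate 3 of the syn-labelled libraries far above the other two. For Cxcr2 it was 254, 273.5 and 277 times in allo-labelled libraries, against 246, 405 and 359.6 times in syn-labelled libraries, with overlap. No difference between these ratios was tested.

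Genes for receptors of the granule proteins rose in 6 of 6 tested, but Tlr4, Lrp1 and Cd14 reached the filter in allo-labelled libraries alone and could only be called higher. Tlr4, which senses S100A8 and S100A9 beside bacterial lipopolysaccharide, was at 2.08, 1.88 and 2.01 FPKM in allo-labelled libraries, against 0.0470, 0.189 and 0.0962 FPKM in syn-labelled libraries, and its co-receptor gene Cd14 rose 9.83-fold. Cd36, a scavenger receptor gene that can take up S100A8 and S100A9 complexes with arachidonic acid, rose 15.6-fold, and P2rx7, an ATP receptor gene through which human LL-37 acts, 6.54-fold. Macrophages express these genes too, and their marker list rose in 7 of 7 genes, of which Adgre1, Cd5l and Mertk reached the filter in allo-labelled libraries alone; its part was not tested.

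Of 6 protease inhibitor genes tested, 2 rose and 3 fell, near the shares of all genes tested (34.7% and 33.0%). Not all 6 are inhibitors of the granule serine proteases: Cst3 is a cystatin gene. Serpina3g, at 69.35 to 76.65 FPKM in allo-labelled libraries and 71.0 to 72.6 FPKM in syn-labelled libraries, was not called. Slpi, which encodes the secretory inhibitor of elastase, was at 13.7, 10.99 and 14.6 FPKM in allo-labelled libraries, against 0.720, 0.797 and 0.860 FPKM in syn-labelled libraries (log2 difference 2.97 ± 0.11, limma adjusted p = 8.60e-07). Slpi reached the filter in allo-labelled libraries alone and could only be called higher. Cst3, a cystatin gene that dendritic cells express strongly, rose 12.9-fold, to 1730.0 FPKM in allo-labelled libraries against 135 FPKM in syn-labelled libraries. Serpinb1a, which encodes the cytosolic inhibitor of elastase, cathepsin G and proteinase 3, picked out after its values were seen, fell, at 5.41, 5.60 and 5.42 FPKM in allo-labelled libraries against 8.395, 7.40 and 8.79 FPKM in syn-labelled libraries. Serpinb6a fell too, as did Serpina3f, which has close paralogs.

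Of 13 transcription factor genes of granulocyte development, 9 rose, 3 fell and 1 (Id2) was not called, with a median of 0.55. Shares over all genes tested were 34.7% that rose and 33.0% that fell. Cebpa, Cebpd and Cebpe reached the filter in allo-labelled libraries alone and could only be called higher. Spi1, which encodes PU.1, was at 41.7, 41.5 and 40.8 FPKM in allo-labelled libraries, against 1.36, 1.499 and 1.13 FPKM in syn-labelled libraries (log2 difference 4.19 ± 0.06, limma adjusted p = 2.57e-08). Irf8, which favours monocytes and dendritic cells over granulocytes, rose 7.88-fold and Klf4, a factor of monocyte development, 2.235-fold. Cebpe, which encodes C/EBP epsilon of specific granule gene control and was picked out after its values were seen, was at 3.88, 2.12 and 3.14 FPKM in allo-labelled libraries, against 0.210, 0.312 and 0.344 FPKM in syn-labelled libraries. Gfi1, a repressor that neutrophil precursors need and T cells also use, fell, at 6.98, 6.79 and 6.54 FPKM in allo-labelled libraries against 14.6, 15.7 and 14.7 FPKM in syn-labelled libraries. Myb and Cbfb fell as well.

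**Figure D3:**
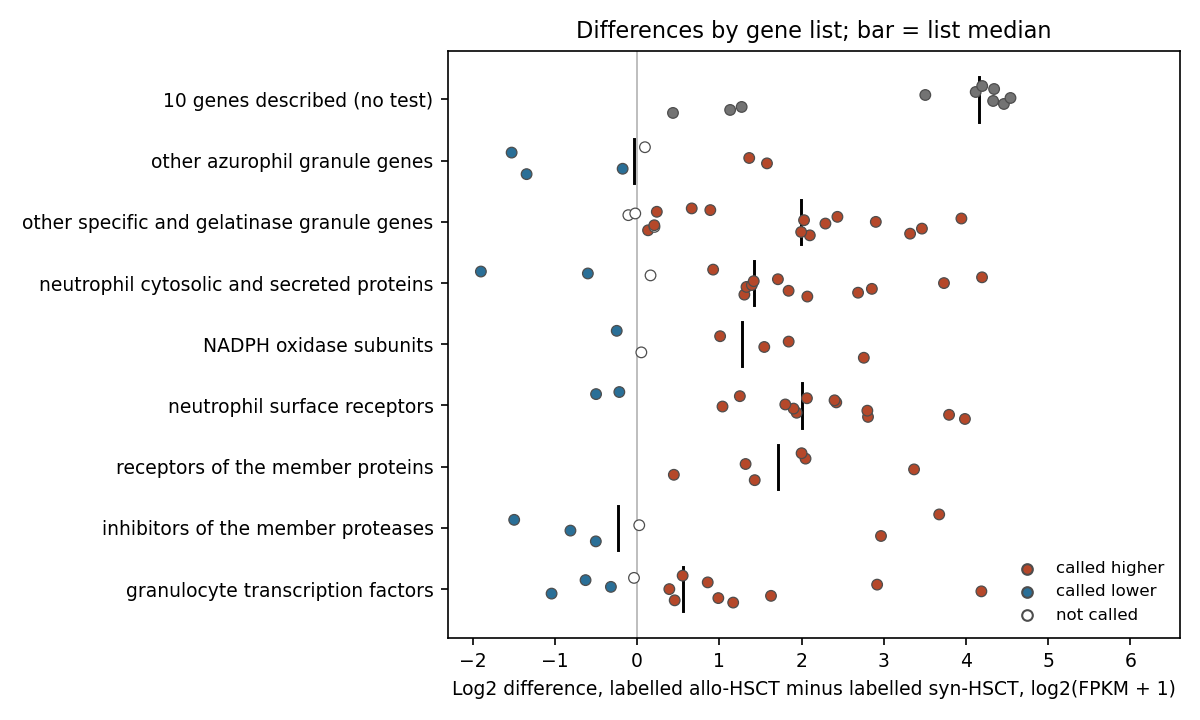
Log2 differences on log2(FPKM + 1) values, allo-labelled libraries minus syn-labelled libraries, for the 10 genes described (grey, no test) and for the tested genes of 8 lists, coloured by limma's call at an adjusted p under 0.05, with a bar at each median. The specific and gelatinase granule list and the neutrophil surface receptor list have medians of 1.995 and 2.003. In these, 4 of 17 and 11 of 14 tested genes passed the filter through allo-labelled libraries alone and could only lie to the right. The azurophil and inhibitor lists, with 1 such gene each, straddle 0 with medians of -0.04 and -0.24.

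Neutrophil transcripts were not alone in differing. Dendritic cell markers summed to 1280 to 1367 FPKM in allo-labelled libraries, against 115 to 122.5 FPKM in syn-labelled libraries, an 11.3-fold ratio with 7 of 7 genes higher, 3 of which (Flt3, Zbtb46 and Siglech) reached the filter in allo-labelled libraries alone. Monocyte markers had a ratio of sums of 1.675, with 4 genes higher (Cd14 through allo-labelled libraries alone) and 1 (Cx3cr1) lower. Ccr2 and Cx3cr1, at ratios of 1.997 and 0.615, held the largest values in that sum. Csf1r, Cd14, F13a1 and Fn1 had ratios of 9.998, 9.83, 10.1 and 3.58, and F13a1 did not enter the test. These monocyte genes were named after their values were seen. Erythroid markers had a ratio of sums of 49.9, with 3 of 3 tested genes higher, 2 of them (Hba-a1 and Hbb-bt) through allo-labelled libraries alone. Against these, the summed FPKM of the 10 granule genes had a ratio of 20.25 and that of the mature neutrophil markers 23.5. The 2 B cell markers used summed to 7.16 to 8.42 FPKM in allo-labelled libraries and 7.69 to 8.07 FPKM in syn-labelled libraries. The CD8 T cell markers summed to 1236 to 1306 FPKM in allo-labelled libraries and 1361 to 1382 FPKM in syn-labelled libraries. No difference between these ratios was tested, and the part of each cell type in the granule gene values was not tested.

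**Figure D4:**
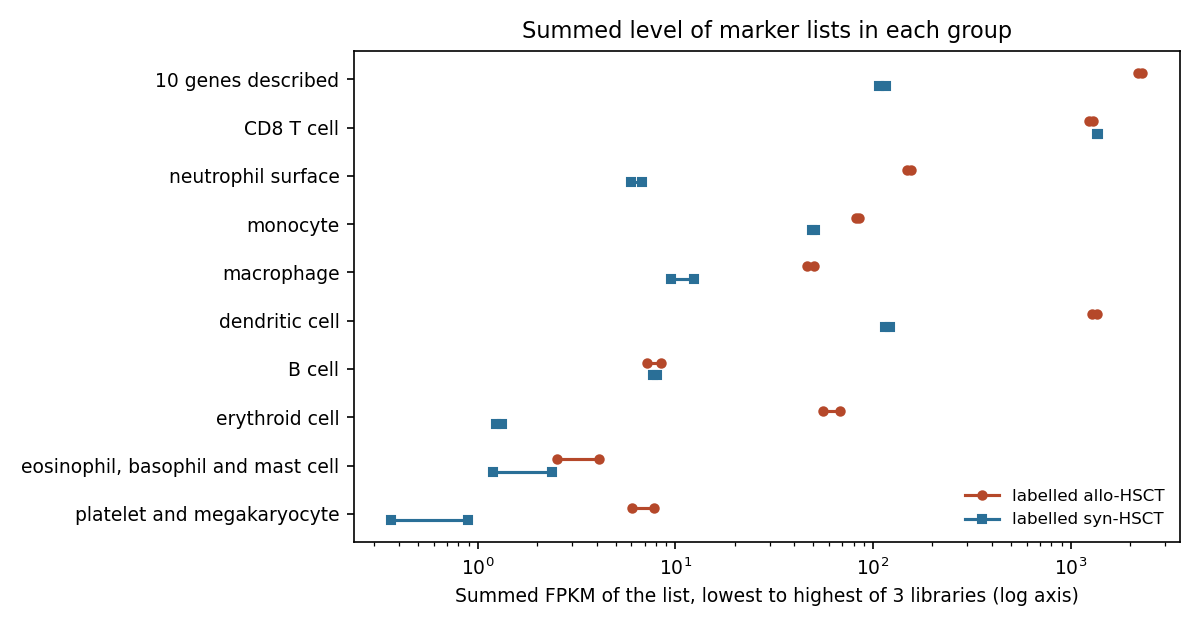
Summed FPKM of the 10 genes described and of 9 marker lists on a log axis, drawn from the lowest to the highest of 3 libraries in each group, with circles for allo-labelled libraries above squares for syn-labelled libraries. The 10 genes and the neutrophil surface list have ratios of 20.25 and 23.5 between the groups, and the CD8 T cell list one of 0.920.

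The genes outside the 10 whose profile over the 6 libraries was most like the mean profile of the 10 were Ece1, Cadm1, Ifi205, Trpm2, Siglech and Aldh2. Likeness was the root mean square distance between log2(FPKM + 1) values after each gene's own mean was removed, and it was 0.0378 for Ece1 and 0.0722 for Aldh2. The mean profile joins the 3 azurophil genes, with log2 differences of 0.44 to 1.27, and the other 7, with 3.505 to 4.54. The 6 nearest genes had log2 differences of 3.16 to 3.37. These lie between the 2 ranges, so the 6 genes match the average and no single gene of the 10. Ece1, which encodes endothelin-converting enzyme, was at 99.9, 104 and 103 FPKM in allo-labelled libraries, against 10.2, 9.82 and 10.3 FPKM in syn-labelled libraries. Siglech, a surface marker of plasmacytoid dendritic cells, was at 9.61, 9.94 and 9.31 FPKM in allo-labelled libraries, and at or below 0.0474 FPKM in syn-labelled libraries. Ifi205, an interferon-induced gene, averaged 28.4 FPKM in allo-labelled libraries and 2.16 FPKM in syn-labelled libraries. The same means were 14.2 and 0.542 FPKM for Cadm1, a cell adhesion gene, 14.1 and 0.684 FPKM for Trpm2, a calcium channel gene, and 22.7 and 1.56 FPKM for Aldh2, an aldehyde dehydrogenase gene.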

How the data were processed

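RNA of splenic CD8+ T cells was measured in 6 libraries, 3 per group, grouped by the label that names donor and host. The authors deposited 1 table of FPKM for 14750 genes. The unit was read from the values: FPKM times the GENCODE vM21 exon length gave whole multiples of 1 constant per library, within 0.1 fragments, for 94.3% to 94.6% of values above 0, and all values of the 10 genes were whole. FPKM and RPKM cannot be told apart here. No gene has a larger group mean under 0.5 FPKM, which leaves out genes that are low throughout. The submitters' processing notes list limma. The aligner, counter and build are not given in the sources used here.

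Genes that reached 1 FPKM in 3 or more of the 6 libraries (12404) were fitted on log2(FPKM + 1) with limma 3.58.1 in R 4.3.3 (eBayes with trend, no covariates, two-sided). Benjamini-Hochberg adjusted p under 0.05 over all genes tested is called; "rose" and "fell" refer to such calls. Folds are ratios of mean FPKM. The fit was tested on simulated data. Replicate pairs differed by more than counting noise (median squared difference 2.33 to 2.48 times that expected from counting), and each library was counted once.

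The members and lists were chosen with earlier results of these data known. Genes named are the 10 members, up to 4 per list with the smallest p and up to 3 that went against their list, preset receptor, T cell and strain genes, the 6 nearest profiles, and, picked after their values were seen, genes stated as such and those that make up a small count. Alternatives were leaving out each library (with the genes of the full filter kept), a block for the replicate number, no filter or one at 5 FPKM, quantile normalization, a pseudocount of 0.1 or 0.01, eBayes without trend, TMM scaling without weights, and limma's voom on recovered fragments, which was added after the data were seen. Protein sequences were not used here, and a few single genes of the lists are not reported here.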

Additional observations from a re-analysis of the deposited data

How the results depend on the processing

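Over the 11 alternatives run for the 10 genes (each library left out, both pseudocounts, quantile and TMM scaling, and voom), none of their log2 differences changed sign. Over 15 alternatives, counts of calls stayed within 1.5 times except with a filter at 5 FPKM, under which genes called higher in libraries labelled allo-HSCT numbered 2817 (of 8075 tested) against 4298, and related neutrophil genes called higher numbered 34 (of 52 tested) against 61. Leaving out 1 library gave 60 to 62 related genes that rose and 13 to 14 that fell. Of 51 named genes outside the 10, 3 changed a call or sign in some setting: Il1r2 (without replicate 1 labelled allo-HSCT), Cd3e (not called after quantile normalization, limma adjusted p = 0.272) and Cd8b1. The log2 difference of Cd8b1, 0.02 and not called, ran from -0.015 without replicate 1 labelled allo-HSCT to 0.039 without replicate 3, and was -0.0010 after TMM scaling and -0.13 after quantile normalization, where it was called (limma adjusted p = 0.0158); the cause was not tested. With the replicate number as a block, 4164 genes rose and 3949 fell (genes called lower in libraries labelled allo-HSCT), and the related genes stayed at 61 and 14. Same-numbered libraries had correlations of deviations of 0.0627, 0.122 and -0.083, and replicate 3 labelled allo-HSCT correlated best with replicate 1 labelled syn-HSCT. With 3 libraries per group, these correlations cannot tell whether same-numbered libraries were handled together. Depth limits the azurophil genes, at 3 to 127 fragments per library.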

Other observations

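Markers of other cells with granules were lower in level than those of neutrophils. Of 7 genes of eosinophils, basophils and mast cells, Epx, Siglecf, Cpa3 and Ms4a2 were not in the table, and the other 3 summed to 2.53 to 4.13 FPKM in allo-labelled libraries and 1.195 to 2.37 FPKM in syn-labelled libraries. Prss34, a basophil protease gene, was at 1.06, 1.31 and 1.68 FPKM in allo-labelled libraries, against 1.18, 0.728 and 0.703 FPKM in syn-labelled libraries, and was not called by limma (adjusted p = 0.0824). Platelet and megakaryocyte genes summed to 6.03 to 7.84 FPKM in allo-labelled libraries, against 0.367 to 0.892 FPKM in syn-labelled libraries. Of these, Ppbp, which encodes a chemokine of platelet alpha granules, was at 2.31, 2.77 and 2.62 FPKM in allo-labelled libraries, against 0 in 2 libraries and 0.0493 FPKM in replicate 3 labelled syn-HSCT. These genes were named after their values were seen.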
